A study of Canis lupus familiaris with 42 samples.

Results

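The proteasome genes described here are the genes whose symbol in the platform annotation begins with PSMA, PSMB, PSMC, PSMD, PSME, PSMF or PSMG, without the immunoproteasome subunits PSMB8, PSMB9 and PSMB10. This rule found 41 of the 15115 genes with a probe set of their own. They comprise 39 genes of the proteasome and its regulators plus PSMC3IP and PSME3IP1, which encode partners of proteasome proteins and meet the rule by symbol only. PSMB7, PSMC1, PSMD1, PSMD4, PSMD5 and PSMG4 had no probe set of their own symbol alone and were not analysed here.

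RNA came from spontaneous sarcomas of dogs, with 1 array per sample. The 21 samples of the first group carry the treatment label none, and the 21 samples of the second group, from the same tumours, carry the label hyperthermia. Per the series' design text, which speaks of 22 tumours, heat was given as an adjuvant to radiotherapy and the second sample followed the first heat session. The labels give no breed, age, dose, temperature or time of the second sample, do not say whether it was taken after radiation, and hold no tumour sampled a second time without heat, so heat, radiation, repeated sampling and time cannot be told apart.

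The proteasome is the barrel-shaped protease that degrades proteins tagged with ubiquitin. Its 20S core is built from outer alpha rings, which form the gate, and inner beta rings, which hold the cutting sites. The 19S cap binds the core and consists of a base, with a ring of ATPases that unfold the substrate, and a lid, which removes the ubiquitin chain. In heated cells it clears proteins that can no longer be refolded. When proteasomes are overloaded, the transcription factor NRF1 (gene NFE2L1) is known to raise the subunit genes together, and interferon replaces the cutting subunits by PSMB8, PSMB9 and PSMB10.

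Values are on the log2 scale and came from RMA, which subtracts background, sets the arrays to 1 common distribution and combines a probe set's probes, so a change of 1 is a doubling. Among the markers checked against the sarcoma label, vimentin (VIM) and the collagen genes COL1A1, COL1A2 and COL3A1 had mean levels before treatment of 13.99, 13.18, 13.68 and 13.55. The mesenchymal markers COL6A3, FN1, PDGFRB and THY1 had 10.52, 12.24, 7.76 and 10.86. The epithelial genes EPCAM and CDH1 had 3.39 and 4.16, and EPCAM reached up to 5.87 before and 7.69 after treatment. Probes differ in brightness, so these levels do not rank the genes. The spike-in controls divide the tumours into 9 with levels of 6.23 to 8.04 (called the spiked batch) and 12 with levels of 3.20 to 4.36 (the unspiked batch), and no label names a batch. The 3′ to 5′ contrast of control transcripts, a sign of RNA quality, changed by a mean of 0.13 (SD 0.44, n = 21), by 0.38 in the spiked tumours and by -0.054 in the others. Of the cell type markers, 6 of 7 measured T and NK cell genes and all 3 measured genes of dividing cells fell, while 2 of 3 neutrophil markers rose. Of 7 macrophage markers MARCO rose and CSF1R fell, of 8 mesenchymal ones COL6A3 fell, and the other 6 marker lists had no gene past the threshold, a limma adjusted p under 0.05, beside 4.02% of all genes higher and 3.13% lower.

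Most proteasome genes were measured well above the background of the array. Of the 41 genes, 39 lay above the median probe set level of 5.28, up to 11.54 for PSMA7. PSMA8, a testis form of an alpha subunit, and PSMB11, a thymus form of a catalytic subunit, lay below it, at means of 3.12 and 4.24. Before treatment the alpha subunit gene PSMA7 ranged from 11.10 to 12.20 over the tumours (median 11.47), and the inhibitor gene PSMF1 from 6.02 to 7.66 (median 6.70). Levels of different genes are not set against each other here, since probes differ in brightness.

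Proteasome gene RNA moved little between the samples, and what passed the test was upward. PSMB1, PSMD13 and PSMD3 rose, by 1.16-fold, 1.11-fold and 1.14-fold, and no member fell (limma with the tumour as a block, Benjamini-Hochberg adjusted p under 0.05 over all 42924 probe sets). The share of all 15115 genes called higher by the same rule was 4.02%, and 3.13% were called lower. At an unadjusted limma p under 0.05, 13 members were higher and 0 lower, beside 12.1% of all genes higher and 9.63% lower. Mean changes were above 0 in 36 of 41 members (87.8%), against 53.1% of all genes and 55.5% of the 9177 genes above the median level. The median change of the members was 0.089, against 0.0069 over all genes and 0.015 over the genes above the median level. It was 0.056 without tumours 13 and 15 and 0.057 with array weights. Since members share arrays and move together over tumours, these counts are not independent observations.

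**Figure D1:**
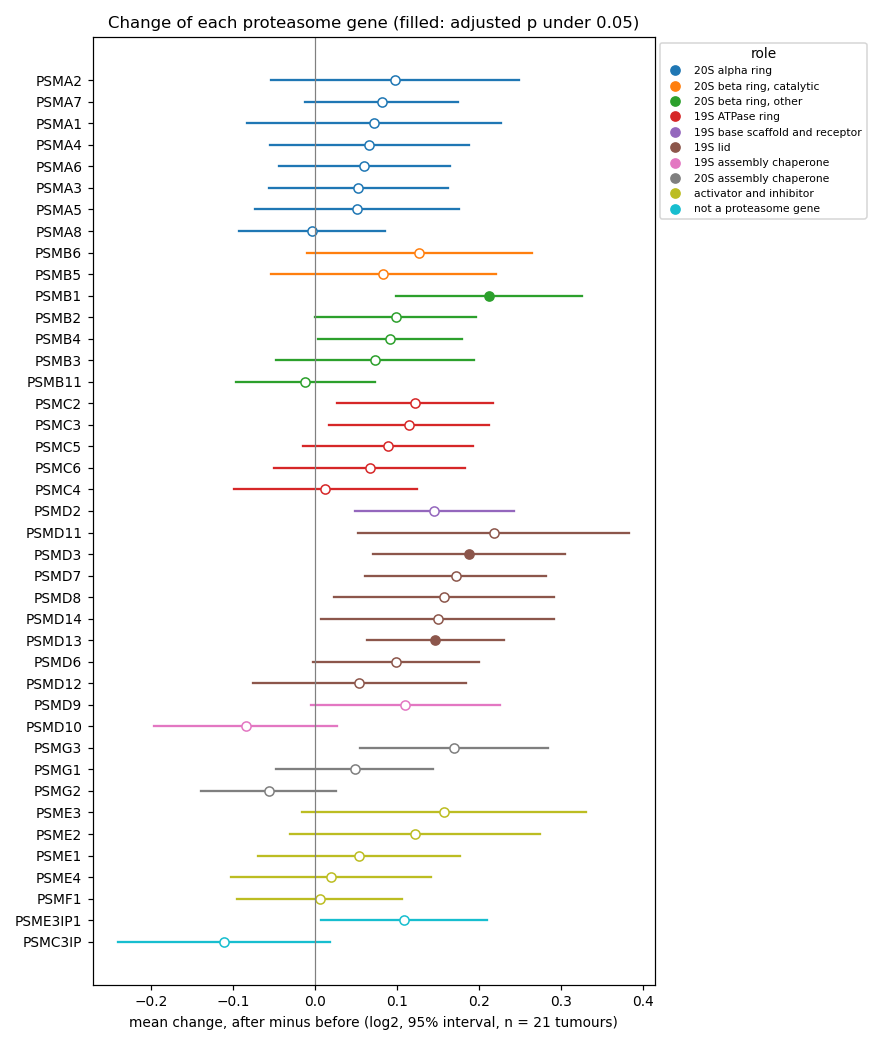
Mean change of each of the 41 genes (log2, after minus before, horizontal axis) with its 95% interval over 21 tumours, grouped by role and ordered by size within each role; filled points have a limma adjusted p under 0.05. The filled points are PSMB1, PSMD3 and PSMD13, all 8 lid genes lie above 0, and the lowest point is PSMC3IP at -0.11.

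The intervals of the chosen probe sets were narrow. Over the 1 probe set taken for each of the 41 members, the 95% intervals lay between -0.24 and 0.38 on the log2 scale, so none reached beyond 1.30-fold up, for PSMD11, or 0.847-fold down, for PSMC3IP. Further probe sets of PSME4, PSMA5 and PSMF1 reached up to 0.45, 0.42 and 0.41, and further ones of PSMC3IP and PSMD10 down to -0.30 and -0.28.

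PSMB1 encodes a beta subunit of the core without a cutting site of its own. Its level ran from 9.29 to 10.82 before treatment (median 10.03) and from 9.76 to 10.88 after it (median 10.21). The groups overlapped over nearly their whole range, and the rise shows within tumours, 16 of which were higher. The change was 0.21 ± 0.055 (SE, n = 21, limma adjusted p = 0.0228). It was 0.24 over the spiked tumours and 0.19 over the unspiked ones, and it did not pass in either batch alone (limma adjusted p = 0.0966 and 0.379).

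PSMD13 encodes a structural subunit of the lid. Its level ran from 9.22 to 9.77 before (median 9.43) and from 9.24 to 10.01 after treatment (median 9.59). On its chosen probe set 18 of 21 tumours were higher, the most of the 3. The highest rise was 0.51 in tumour 2. The change was 0.15 ± 0.040 (SE, n = 21, limma adjusted p = 0.0303), with 0.15 over the spiked tumours and 0.14 over the unspiked ones. The call was lost without tumour 1, 2, 10, 11, 20 or 21. On the further PSMD13 probe set 13 of 21 tumours were higher. It changed by 0.18 ± 0.056 (SE, limma adjusted p = 0.0583), short of the threshold. Over tumours its changes had r = 0.28 with those of the chosen one.

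PSMD3 encodes another structural subunit of the lid. Its level ran from 7.83 to 9.75 before (median 8.51) and from 8.04 to 10.04 after treatment (median 8.54). A single tumour was the highest in both groups, and 16 of 21 tumours were higher after treatment. The change was 0.19 ± 0.057 (SE, n = 21, limma adjusted p = 0.0493), which lies at the threshold. With the tumour as a random block the adjusted p was 0.184. The call held in only 5 of the 21 fits that left out 1 tumour, those without tumour 6, 7, 14, 17 or 18, and the adjusted p ran from 0.0219 to 0.0905 over all 21. A second PSMD3 probe set rose by 0.20 ± 0.044, higher in 18 of 21 tumours (limma adjusted p = 0.00813). The remaining PSMD3 probe sets had changes of 0.11 ± 0.048 and 0.10 ± 0.076 and did not pass (17 and 11 tumours higher, limma adjusted p = 0.213 and 0.533).

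**Figure D2:**
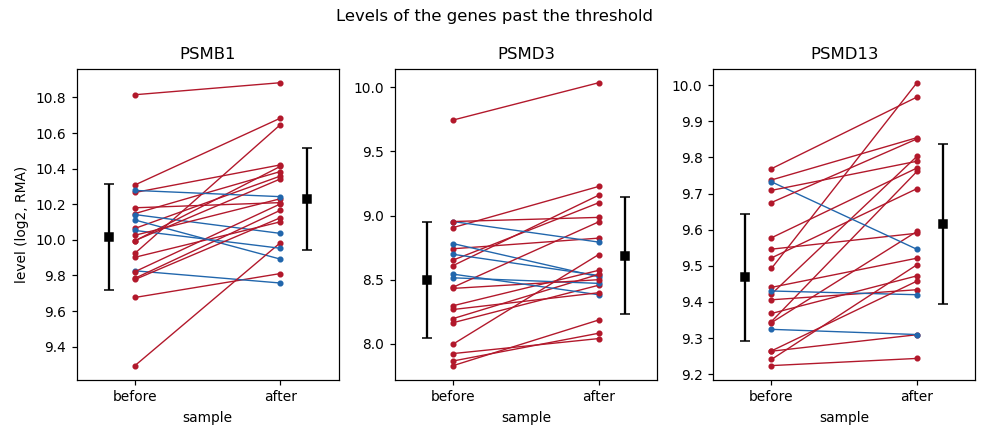
Levels of PSMB1, PSMD3 and PSMD13 (log2, vertical axis) in each of 21 tumours, joined from before to after treatment, red where higher and blue where lower after it; squares with bars are the group mean and SD. Red lines join 16, 16 and 18 of 21 tumours, while the ranges before and after overlap for each gene.

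Members were then compared by their place in the complex. In the alpha ring 7 of 8 genes had mean changes above 0 and none passed the test, with a median of 0.063. PSMA2 had the highest mean change there (0.098 ± 0.074, SE, 13 of 21 tumours higher), and PSMA8 the lowest (-0.0035, 9 tumours higher). PSMA1 varied most among the alpha subunits, from -0.57 in tumour 11 to 0.90 in tumour 13. It was the only member whose change differed between batches at an unadjusted limma interaction p under 0.05 (p = 0.0424, adjusted p = 0.69), at -0.10 over the spiked tumours and 0.20 over the unspiked ones. By that rule 6.28% of all genes differed, and after adjustment 0 members did.

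In the beta rings the cutting subunits among the members were PSMB6 and PSMB5, apart from the thymus form PSMB11. PSMB6, the caspase-like subunit, had a mean change of 0.13 ± 0.066 (SE, 14 of 21 tumours higher, limma adjusted p = 0.303). PSMB5, the chymotrypsin-like subunit and the target of proteasome inhibitors in the clinic, had a mean change of 0.083 ± 0.067 (14 tumours, adjusted p = 0.559). Both varied widely, PSMB5 from -0.67 in tumour 6 to 0.78 in tumour 3. Of the 5 other beta genes, PSMB1 rose, PSMB2, PSMB3 and PSMB4 had mean changes of 0.073 to 0.098 without passing, and the thymus form PSMB11 had a mean change of -0.012 with little spread (SD 0.17).

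In the 19S cap all 14 measured structural genes had mean changes above 0 on the probe sets taken by the rule. Their median was 0.13, and 2 of them rose. The ATPase ring, with 5 genes, had a median of 0.089 and no gene past the test. It ran from PSMC4 at 0.013 ± 0.054 (13 of 21 tumours higher) to PSMC2 at 0.12 ± 0.046 (15 tumours, limma adjusted p = 0.124). PSMD2, the scaffold of the base that docks ubiquitin-binding shuttles, had a mean change of 0.15 ± 0.047 (14 tumours, adjusted p = 0.068).

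The lid had the highest median of the groups with more than 1 gene, 0.15 over 8 genes, and held PSMD3 and PSMD13. PSMD11, a lid subunit known to limit the assembly of the whole complex, had the highest mean change of all members, 0.22 ± 0.080, but did not pass (limma adjusted p = 0.114). Its change was lowest in tumour 5, at -0.37, and highest in tumour 3, at 1.15, and 14 of 21 tumours were higher. A further PSMD11 probe set changed by 0.11 ± 0.050 (16 tumours higher, limma adjusted p = 0.201). Over tumours the changes of that probe set had r = -0.12 with those of the chosen one. PSMD14, the enzyme that removes the ubiquitin chain, had a mean change of 0.15 ± 0.069 (15 tumours, adjusted p = 0.226). PSMD12 had the lowest of the lid, 0.054 ± 0.063 (12 tumours, adjusted p = 0.72), and 1.09 in tumour 13. Whether the lid differs from the other parts was not tested.

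The assembly chaperones did not share 1 direction. PSMG3, which helps to build the alpha ring, had a mean change of 0.17 ± 0.056 (16 of 21 tumours higher, limma adjusted p = 0.0717). PSMG2, another chaperone of that ring, had a mean change of -0.057 ± 0.040 (9 tumours, adjusted p = 0.492), with an SD of 0.16, the lowest of all members. Among the chaperones of the base, PSMD9 had 0.11 ± 0.056 (16 tumours, adjusted p = 0.286), and PSMD10, also known as gankyrin, -0.084 ± 0.054 (7 tumours, adjusted p = 0.431). PSMD10, PSMG2, PSMA8 and PSMB11 were the 4 proteasome genes with mean changes below 0.

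None of the 5 activator and inhibitor genes passed on the probe set taken by the rule. PSME3, which forms the nuclear activator, had a mean change of 0.16 ± 0.084 and the widest spread of all members (SD 0.41), from -0.33 in tumour 7 to 1.12 in tumour 3. PSME1 and PSME2, which together form the interferon-inducible activator, had mean changes of 0.053 ± 0.060 and 0.12 ± 0.074 (13 and 14 of 21 tumours higher, limma adjusted p = 0.706 and 0.4). PSME4, a nuclear activator, had 0.019 ± 0.059 (12 tumours, adjusted p = 0.911), and the inhibitor PSMF1 0.0055 ± 0.049 (8 tumours, adjusted p = 0.972). Of the 2 genes that are not part of the complex, PSME3IP1 had a mean change of 0.11 ± 0.049 (13 tumours, adjusted p = 0.214) and PSMC3IP, a recombination factor, -0.11 ± 0.062 (5 tumours higher, adjusted p = 0.352).

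The choice of probe set mattered for PSME4 and PSMF1. PSME4 had 2 further probe sets, which rose by 0.29 ± 0.079 and 0.28 ± 0.077 (17 and 16 of 21 tumours higher, limma adjusted p = 0.0309 and 0.0308), while the brightest one, above, had 0.019. The second PSMF1 probe set had a mean change of 0.24 ± 0.080 (15 tumours, adjusted p = 0.0727). Over all 84 probe sets of the members 6 were called higher and 0 lower, beside 2.97% of all 42924 probe sets higher and 2.99% lower. Of the 32 further probe sets above the median level, 30 had the sign of the chosen one, with a median r of 0.52 over tumours between the changes of both. Those of opposite sign were a PSMC4 probe set at -0.053, against 0.013 for the chosen one, and a PSME3IP1 probe set at -0.018, against 0.11. Of the 6 called higher, those of PSMB1 and PSMD13 and the brightest of PSMD3 were taken by the rule. The further probe sets were chosen for description after their values were seen.

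**Figure D3:**
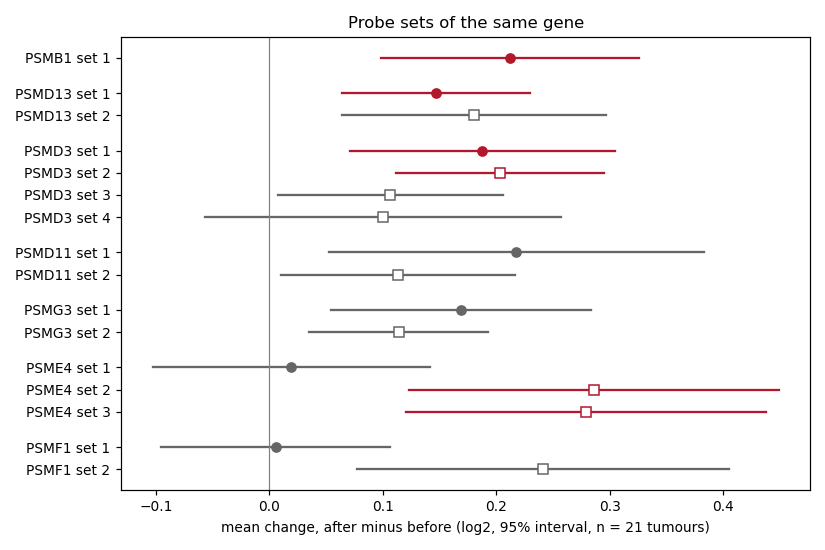
Mean change (log2, 95% interval, n = 21 tumours) of every probe set of 7 genes; circles are the probe sets taken by the rule, squares the others, and red has a limma adjusted p under 0.05. The PSME4 circle lies at 0.019 and both PSME4 squares near 0.28, while the PSMD3 circle and its brightest square lie at 0.19 and 0.20. The remaining PSMD3 squares lie at 0.11 and 0.10 and are not red.

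Tumours differed in direction. The mean change over the 39 proteasome genes was above 0 in 14 of 21 tumours, with a mean of 0.088 and an SD of 0.16 between tumours. The highest means were 0.38 in tumour 3, 0.37 in tumour 13 and 0.34 in tumour 10, and the lowest were -0.16 in tumours 6 and 19. In tumour 10, 36 of 39 genes were higher after treatment, and in tumour 19 only 7 of 39. In 10 tumours at least 30 genes were higher, in 4 at most 12, and in the other 7 between those. The mean over the spiked tumours was 0.065 (5 of 9 above 0) and over the unspiked tumours 0.11 (9 of 12 above 0). Tumour 13, among the highest, also had the largest fall of the 3′ to 5′ contrast, by 1.03, and the part of RNA quality in its values was not tested.

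**Figure D4:**
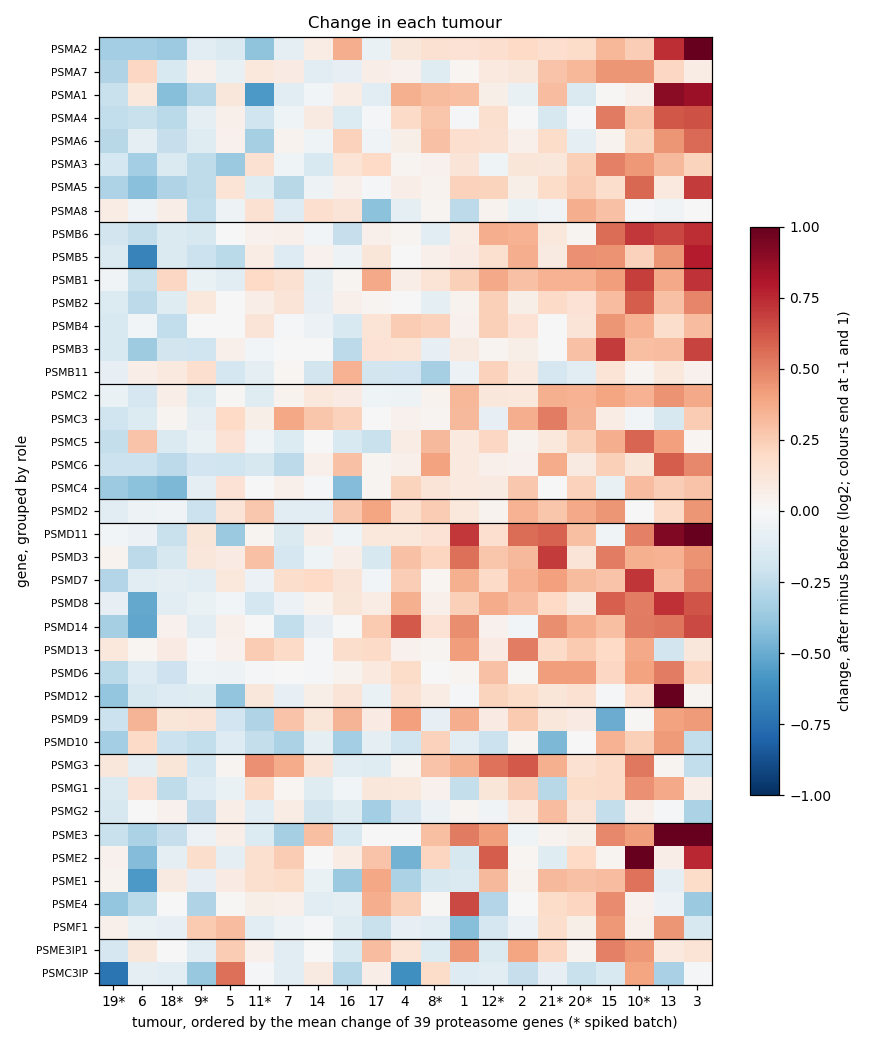
Change (log2, after minus before, colour) of each of the 41 genes (rows, grouped by role) in each of the 21 tumours (columns, ordered by their mean change over 39 proteasome genes; an asterisk marks the spiked batch). Columns are mostly blue in tumours 19 and 6 and mostly red in tumours 10, 13 and 3, those of tumours 5, 7, 11, 16 and 17 are mixed with 20 to 23 of 39 genes higher, and the rows of PSMG2, PSMD9, PSMB11 and PSMA8 follow the others least.

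The changes of proteasome genes were correlated over tumours. The median Pearson r between the changes of 2 proteasome genes was 0.38 over the 21 tumours, against 0.0034 between 2 genes of all 15115 and 0.011 between genes above the median level. It was 0.54 within the spiked and 0.33 within the unspiked batch, and 0.38 without tumours 13 and 15. Lists of related genes also had median r above that of all genes. It was 0.44 for the immunoproteasome and its interferon route (7 genes) and 0.22 for the COP9 signalosome. Subunits and assembly factors without a PSM symbol had 0.19, the NRF1 route 0.17 and substrate delivery 0.11. These are descriptions with no p, since all genes share the same arrays and the tumours' common shifts. PSMD8 of the lid had the highest median r with the other members, 0.65, followed by PSMA5 (0.64) and PSMB5 (0.63). PSMG2 (0.0038), PSMD9 (0.034) and PSMB11 (0.050) had the lowest. PSMD13, whose chosen probe set rose in the most tumours of the members past the threshold, had only 0.17.

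Relations between the members' mean change and other measures were looked at for 18 measures, chosen after the values were seen. The subunits and assembly factors without a PSM symbol had an r of 0.74 with it, the COP9 signalosome, whose subunits resemble the lid, 0.65, and the immunoproteasome list 0.024. The lists of the NRF1 route and of substrate delivery had 0.28 and 0.62. Without the 2 tumours farthest from each list's median, those 2 values were -0.054 and 0.46. The root mean square of a tumour's changes over every probe set, which measures how much its profile moved at all, had an r of 0.68. The 3′ to 5′ contrast had -0.23, with 0.28 within the spiked and -0.53 within the unspiked batch, and 0.076 without the 2 tumours farthest from the median contrast change. Over 11 marker lists of cell types, r ran from -0.61 for red cells and platelets to 0.38 for dividing cells, with -0.35 for T and NK cells. Without the 2 tumours farthest from each list's median these were -0.44, 0.076 and -0.46. Mesenchymal markers had an r of -0.77 within the spiked and 0.51 within the unspiked batch. Mean levels of the 3 measured red cell and platelet markers ran from 5.57 to 7.71 before and from 5.46 to 6.91 after treatment. In such bulk samples fewer cells of a type and less RNA per cell cannot be told apart, and the part of the cell mixture in the members' changes was not tested.

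The immunoproteasome subunits were compared with the subunits whose place they take. PSMB9 ran from 5.98 to 10.35 before (median 8.21) and from 6.96 to 9.95 after treatment (median 8.21), and PSMB8 from 5.28 to 9.08 (median 6.99) and from 5.56 to 8.67 (median 7.10). Neither changed past the test, with mean changes of 0.071 ± 0.12 for PSMB9 and 0.042 ± 0.13 for PSMB8 (SE, n = 21, limma adjusted p = 0.826 and 0.912). PSMB10 had a mean change of 0.17 ± 0.080 (16 of 21 tumours higher, adjusted p = 0.222), and its counterpart PSMB7 was not analysed here. The change of PSMB9 minus that of PSMB6 was -0.057 (95% interval -0.35 to 0.24, sign-flip permutation test, two-sided, p = 0.689, adjusted p = 0.784 over 2 pairs). The change of PSMB8 minus that of PSMB5 was -0.042 (95% interval -0.36 to 0.27, sign-flip permutation p = 0.784, adjusted p = 0.784).

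The directions of the 2 forms were also compared within single tumours. PSMB9 and PSMB6 moved in opposite directions in 11 of 21 tumours, and so did PSMB8 and PSMB5. That is near the share that 2 unrelated changes would give, so it does not show that the forms diverge. Some of the counted changes lay close to no change, such as PSMB5 at 0.00074 in tumour 4 and PSMB9 at -0.0030 in tumour 11. In tumour 13 PSMB6 changed by 0.67 and PSMB9 by -0.74, and in tumour 18 PSMB6 by -0.14 and PSMB9 by 0.78. The SD of the change was 0.61 for PSMB9 and 0.64 for PSMB8, against 0.31 for both PSMB6 and PSMB5, a difference in spread that was not tested. Both differences were above 0 in the spiked batch (0.14 and 0.16) and below 0 in the unspiked batch (-0.20 and -0.20).

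**Figure D5:**
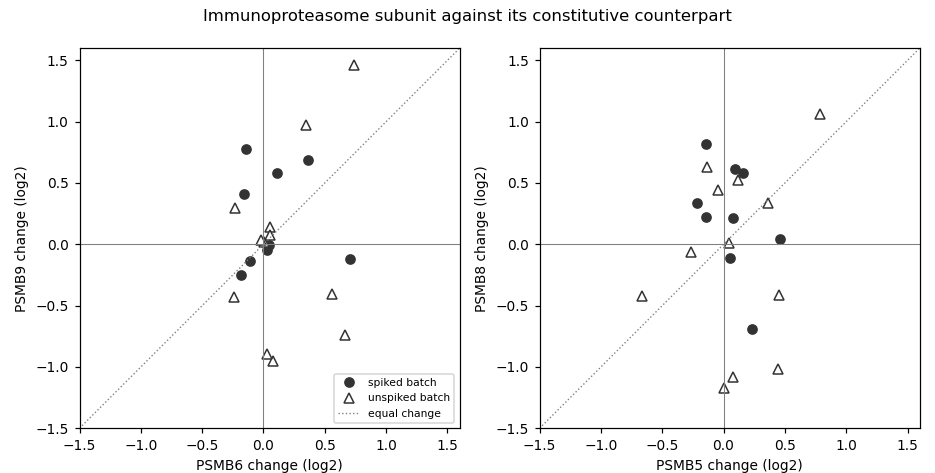
Change (log2, after minus before) of PSMB9 against PSMB6 and of PSMB8 against PSMB5, 1 point per tumour, filled circles for the spiked and open triangles for the unspiked batch; the dotted line marks equal change. In each panel 11 of 21 points lie in the quadrants of opposite direction, and the vertical spread is wider than the horizontal one.

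Correlations over tumours were computed for 7 pairs of single genes, 5 of them planned and PSMB8 with PSMB9 and PSMB5 with PSMB6 added after the values were seen. The p-values of those 2 added pairs are therefore descriptions and not tests. Adjusted p-values run over all 7 pairs. Each permutation p is against no relation at all, while 2 proteasome genes had a median r of 0.38. The immunoproteasome subunits PSMB8 and PSMB9 moved together (r = 0.88, permutation p = 1e-05, the smallest the permutations can give, adjusted p = 7e-05, n = 21; rho = 0.89, permutation adjusted p = 7e-05), with r = 0.83 without the 2 tumours farthest from the median. It was 0.79 over the spiked tumours and 0.90 over the unspiked ones. PSMB5 and PSMB6 did so too (r = 0.78, permutation p = 2e-05, adjusted p = 7e-05; rho = 0.81, permutation adjusted p = 0.000175), with r = 0.73 without the 2 farthest, 0.57 over the spiked tumours and 0.89 over the unspiked ones. Across the forms, PSMB6 with PSMB9 gave r = 0.15 (permutation p = 0.518, adjusted p = 0.604; rho = 0.099, adjusted p = 0.78), and PSMB5 with PSMB8 gave r = 0.055 (permutation p = 0.814, adjusted p = 0.814; rho = 0.00, adjusted p = 1).

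PSME1 and PSME2, the subunits of 1 activator, had r = 0.67 (permutation p = 0.001, adjusted p = 0.00233; rho = 0.54, permutation p = 0.0135, adjusted p = 0.0316). The 2 pairs added after the values were seen had smaller p-values. Their inclusion made both adjusted p of PSME1 with PSME2 smaller than over the planned pairs alone, so these are not counted as passing. Without the 2 farthest tumours, 6 and 10, r was 0.46, and within the batches it was 0.57 and 0.68. PSME1 with PSMB9 gave r = 0.35 (permutation p = 0.123, adjusted p = 0.215; rho = 0.39, adjusted p = 0.143). PSMD14 with ZFAND2A, a heat-inducible gene of a protein bound to the cap, gave r = 0.25 (permutation p = 0.268, adjusted p = 0.375; rho = 0.24, adjusted p = 0.411).

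Other genes of the pathway were taken as 5 lists. Of the 10 measured subunits and assembly factors without a PSM symbol, 1 rose and 0 fell, 8 had mean changes above 0, and the median was 0.11. ADRM1, the ubiquitin receptor of the base, rose by 0.24 ± 0.044 in 20 of 21 tumours (limma adjusted p = 0.00256). Its level ran from 7.82 to 8.80 before (median 8.21) and from 7.97 to 9.06 after treatment (median 8.40), with changes of 0.24 in both batches. ADRM1 passed in neither batch alone (limma adjusted p = 0.0882 in the spiked and 0.176 in the unspiked one). TXNL1, a thioredoxin-like protein bound to the cap, had a mean change of 0.16 ± 0.055 (15 tumours, adjusted p = 0.0809). A probe set of TXNL1 without the _s_at or _x_at ending had a change of -0.058.

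Of the 8 measured genes of the NRF1 route, 1 rose and 1 fell. NFE2L1, which encodes NRF1, had a mean change of 0.14 ± 0.050 (SE, 16 of 21 tumours higher) and did not pass (limma adjusted p = 0.109). BACH1, a repressor that competes at antioxidant elements, rose by 0.56 ± 0.12 in 18 of 21 tumours (limma adjusted p = 0.00773), from levels of 4.04 to 6.52 (median 4.85) to 4.10 to 6.81 (median 5.47). NFE2L2, which encodes NRF2, fell by 0.18 ± 0.046 in 18 of 21 tumours (adjusted p = 0.0181), and a probe set without those endings had a change of -0.029 (adjusted p = 0.851). The NFE2L2 call was lost with the tumour as a random block (limma adjusted p = 0.245), by the Wilcoxon test (0.0528) and without the tumours of changed contrast (0.165), and the BACH1 call by the last 2 (0.0551 and 0.0636). In the unspiked batch alone neither BACH1 nor NFE2L2 passed (limma adjusted p = 0.277 and 0.499), while both did in the spiked batch (0.0301 and 0.0489). The ranges before and after overlapped for both genes.

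In the other lists limma called 0 genes in either direction. The immunoproteasome list (7 measured, median 0.042) had its smallest p at PSMB10 and at NLRC5, a regulator of antigen presentation genes, whose mean change was -0.11 ± 0.055 (8 of 21 tumours higher, limma adjusted p = 0.248). The list of substrate delivery (12 measured, median 0.011) held FAF1 at 0.13 ± 0.041 (17 tumours, adjusted p = 0.07) and ZFAND2B at 0.14 ± 0.049 (14 tumours, adjusted p = 0.0843). The COP9 signalosome (9 measured, median 0.017) held COPS6 at 0.15 ± 0.056 (14 tumours, adjusted p = 0.133) and COPS3 at 0.092 ± 0.053 (13 tumours, adjusted p = 0.362).

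Within a single batch no member passed. In the 9 spiked tumours 0 members were called higher, beside 1.49% of all genes, and 7 were higher at an unadjusted limma p under 0.05, beside 10.9% of all genes. In the 12 unspiked tumours 0 members were called, beside 0% of all genes, and 8 were higher at an unadjusted limma p under 0.05, beside 7.4% of all genes. Mean changes were above 0 in 29 of 41 members over the spiked tumours and 35 of 41 over the unspiked ones. With the 5 tumours left out that had a contrast change above 0.5 in size, 34 of 41 members had mean changes above 0 and 0 were called, and the 16 tumours left are fewer.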

How the data were processed

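The authors processed the arrays by RMA and Affymetrix Expression Console, per the submitters' processing notes, which name no version. The table they deposited holds log2 levels of 43035 probe sets on 42 arrays, between 2.13 and 14.65, with array medians of 5.20 to 5.31. After removal of 111 controls, 42924 probe sets were tested, and 1 probe set stood for each gene, the brightest with that symbol alone. Of the 41 chosen, 25 end in _s_at or _x_at and can bind related transcripts.

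Arrays were paired by the code in the titles, and all 21 pairs matched best (r of 0.438 to 0.900). Tumour numbers are names only. Nothing in the labels ties tumours to separate dogs, and the p-values reflect only how these samples vary. Precision is limited by how many arrays there are.

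The test of change was limma 3.58.1 (R 4.3.3), two-sided, with the tumour as a block and Benjamini-Hochberg adjustment at 0.05, and intervals are at 95%. Single relations used 100000 sign flips or permutations (SciPy 1.17.1, NumPy 2.4.6, pandas 2.3.3, Matplotlib 3.10.9, Python 3.11.15). Both were tested on simulated data. For limma the planted changes were all larger than the mean change of any member, so that test does not show how well changes of this size are found. Of the planned 3 immunoproteasome pairs and 6 correlations, those with PSMB7 could not be run. Genes are named if past the threshold, at the ends of their role's range, from a fixed set, with the 2 smallest p of a list, or among the 3 most or least variable. PSMD8, PSMA5, NFE2L1, single ranges and further probe sets were chosen after their values were seen. The members, roles and lists were chosen with earlier results of these data known. Summaries by tumour, the background above the median level, coherence by batch and relations to the members' mean were added after the values were seen, in a look that also ranked other genes by their relation to that mean, which are not reported. Alternatives were other fits, normalizations, probe set choices and tumours left out. Promoter sequences were not used here.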

Additional observations from a re-analysis of the deposited data

How the results depend on the processing

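The count of 3 proteasome genes higher became 0 with no replicate block, which ignores the pairing, 5 after renewed quantile normalization, 1 with the contrast covariate, 1 by the Wilcoxon signed-rank test, 5 with the mean of all probe sets, 0 in each batch alone and 0 without the tumours of changed contrast, which leave fewer tumours. It lay between 2 and 4 under the other 7 alternatives, between 1 and 5 when each tumour was left out in turn, and 1 without tumour 1, 2, 10, 11, 20 or 21. The count lower stayed 0 in every alternative run. Members above 0 numbered 34 to 37 when each tumour was left out, and 21 of 29 without _s_at or _x_at probe sets. Neither scaling moved the median of all probe sets by over 0.1. PSMB1 stayed past the threshold without any single tumour, but not by the Wilcoxon test (adjusted p = 0.0649), and PSMD13 not with the contrast covariate (limma adjusted p = 0.0757). PSMD3 lost its call under 11 of the 15 alternatives.

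The difference PSMB9 minus PSMB6 was 0.14 in the spiked batch and 0.062 without tumours 13 and 15, and -0.11 to 0.011 when each tumour was left out. PSMB8 minus PSMB5 was 0.16, 0.076 and -0.092 to 0.029, and 0.042 without _s_at or _x_at probe sets. None passed the test.

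Of 557 values of 38 named genes under the 15 alternatives, 492 kept direction and side, 34 lost and 9 gained the call, and 22 turned in sign, none of them called. In the spiked batch PSMA2 turned to -0.033, PSMA8 to 0.046, PSMC4 to -0.016, PSMD9 to -0.0056, PSME4 to -0.053, NLRC5 to 0.029 and PSMA1 to -0.10. In the unspiked batch PSMB11 turned to 0.0010, PSMF1 to -0.00099, PSMB8 to -0.097, PSMB9 to -0.035 and PSME1 to -0.033. Without _s_at or _x_at probe sets PSMA2 was -0.0048, PSMB5 -0.00063 and TXNL1 -0.058. With array weights PSMF1 was -0.0040 and PSME4 -0.015. Without tumours 13 and 15 PSMF1 was -0.040 and PSME4 -0.000356, and without changed contrast PSMD12 was -0.029 and PSMF1 -0.021. With the contrast covariate PSMB8 was -0.022. When each tumour was left out, PSMA8 ran from -0.022 to 0.017, PSMB11 from -0.030 to 0.0043, PSMB8 from -0.0096 to 0.10, PSMC4 from -0.0021 to 0.036, PSME4 from -0.013 to 0.040 and PSMF1 from -0.016 to 0.027. Where no construction of an alternative shows it, the cause was not tested.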
